A study of Mus musculus with 12 samples.

Results

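The carnitine palmitoyltransferase (CPT) genes of the mouse are Cpt1a, Cpt1b, Cpt1c and Cpt2. They were taken by name from a count table of 23420 genes, and all 4 were present and passed the filter on low counts that left 14898 tested genes. The table came from RNA sequencing of 12 libraries, 3 from each of 4 adipose depots of untreated male C57BL/6 mice aged 8 weeks and housed at ambient temperature. The brown depots were the supraclavicular (scBAT) and the interscapular pad (iBAT), and the white depots were the inguinal (iWAT) and the epididymal pad (eWAT). Total counts ran from 17159401 to 29262554 per library. The labels do not say whether replicates are separate animals, so p-values measure the spread between libraries, which may be technical.

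Long-chain fatty acids enter mitochondria bound to carnitine. CPT1, an enzyme of the outer mitochondrial membrane, moves the acyl group from coenzyme A to carnitine and is blocked by malonyl-CoA. The carrier of the inner membrane, encoded by Slc25a20, exchanges acylcarnitine for carnitine, and CPT2, on the inner side, returns the acyl group to coenzyme A for beta-oxidation. Cpt1a is the form that prevails in liver and in many other tissues, and Cpt1b the form of muscle, heart and brown fat. Cpt1c is mainly a neuronal form, found in the endoplasmic reticulum and with little transferase activity. Fatty acid oxidation fuels heat production in brown fat.

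The coding sequences were identical in part. In the longest coding sequences of the GENCODE M21 transcripts, Cpt1a was identical to Cpt1b at 65.8% of aligned positions and to Cpt1c at 57.4%. Cpt1b and Cpt1c were identical at 56.9%, and Cpt2 was identical to each CPT1 gene at 42.9% to 44.1%. The longest run of bases shared without a mismatch was 20 bases for Cpt1a and Cpt1b and 23 for Cpt1b and Cpt1c, and 13 or fewer for each of the other pairs. The runs of 20 and 23 bases are shown, in capitals with 20 coding bases on either side. Stretches of read length were not compared, so these runs need not mark where reads are hardest to tell apart.
Cpt1a with Cpt1b: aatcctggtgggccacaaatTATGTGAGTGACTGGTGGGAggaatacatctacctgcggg
Cpt1b with Cpt1a: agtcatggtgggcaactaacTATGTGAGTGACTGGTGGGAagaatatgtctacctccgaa
Cpt1b with Cpt1c: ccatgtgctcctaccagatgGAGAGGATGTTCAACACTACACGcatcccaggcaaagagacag
Cpt1c with Cpt1b: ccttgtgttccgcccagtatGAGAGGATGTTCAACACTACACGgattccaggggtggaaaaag
The run of Cpt1a with Cpt1b covers coding bases 691 to 710 of Cpt1a and 697 to 716 of Cpt1b, counted from the first base of the start codon. The read length is not given in the sources used here.

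The genes lie apart in the genome. On GRCm38, the assembly also called mm10, Cpt1a spans chromosome 19 from 3322334 to 3385733 on the plus strand. The others are on the minus strand, Cpt1b on chromosome 15 from 89416405 to 89425863, Cpt1c on chromosome 7 from 44959372 to 44974851 and Cpt2 on chromosome 4 from 107903981 to 107923610. RefSeq promoter sequences of GRCm38.p6 were matched for 3 of the 4 members, Cpt1a, Cpt1c and Cpt2. The 250 bases before the RefSeq start are printed for Cpt1a and Cpt2, the members with the most reads, which went opposite ways between brown and white fat. These starts differ from those of the spans above. The Cpt1a window lies inside the Cpt1a span, and the Cpt2 window overlaps the upstream end of the Cpt2 span. Capitals mark AGGTCA (a nuclear receptor half-site), CCAAT and GGGCGG, each searched on both strands, with no overlap between matches.
Cpt1a, chr19:3323051-3323300, plus strand: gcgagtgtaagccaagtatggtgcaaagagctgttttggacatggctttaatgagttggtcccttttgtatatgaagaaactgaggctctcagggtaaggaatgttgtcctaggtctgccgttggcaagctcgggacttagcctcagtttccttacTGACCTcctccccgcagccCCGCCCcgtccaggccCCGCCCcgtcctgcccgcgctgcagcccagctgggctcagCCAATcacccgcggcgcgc
Cpt2, chr4:107923590-107923839, minus strand: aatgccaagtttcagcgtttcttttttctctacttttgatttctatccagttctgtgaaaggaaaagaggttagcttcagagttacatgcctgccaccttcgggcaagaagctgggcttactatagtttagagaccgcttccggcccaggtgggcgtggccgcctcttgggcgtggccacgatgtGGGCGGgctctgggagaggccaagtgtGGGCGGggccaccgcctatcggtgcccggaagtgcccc
The Cpt1a window held 1 AGGTCA, 1 CCAAT and 2 GGGCGG matches, and the Cpt2 window held 2 GGGCGG matches and none of the other motifs. Of 32851 promoter windows of this length in the table, 14% held AGGTCA, 33.8% CCAAT and 32.7% GGGCGG. A direct repeat of AGGTCA spaced by a single base was in 0.0335% of them and in no printed window.

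Between brown and white fat, all 4 CPT genes differed and their directions split. Cpt1b and Cpt2 were higher in brown fat and Cpt1a and Cpt1c lower, in a comparison where 69.4% of all tested genes passed the threshold, 31.3% higher and 38.1% lower. With so many genes called, a call by itself says little about the CPT genes. Nor does a lack of overlap between groups of libraries, since its share over all tested genes was not counted. The log2 difference of the median tested gene was -0.11, and the direction of each of the 4 genes was the same under each of the scalings tried. Levels are given as CPM, read counts scaled to library size with TMM factors, and in bulk tissue fewer cells of a type and less RNA per cell cannot be told apart. The labelled tissues held their defining markers. The summed level of Ucp1, Cidea, Dio2 and Ppargc1a was 3448 to 4554 CPM in brown libraries against 63.96 to 275.0 CPM in white ones, and that of Lep, Nnat, Sncg and Slc7a10 was 161.5 to 515.6 CPM in brown libraries against 965.2 to 3722 CPM in white ones.

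**Figure D1:**
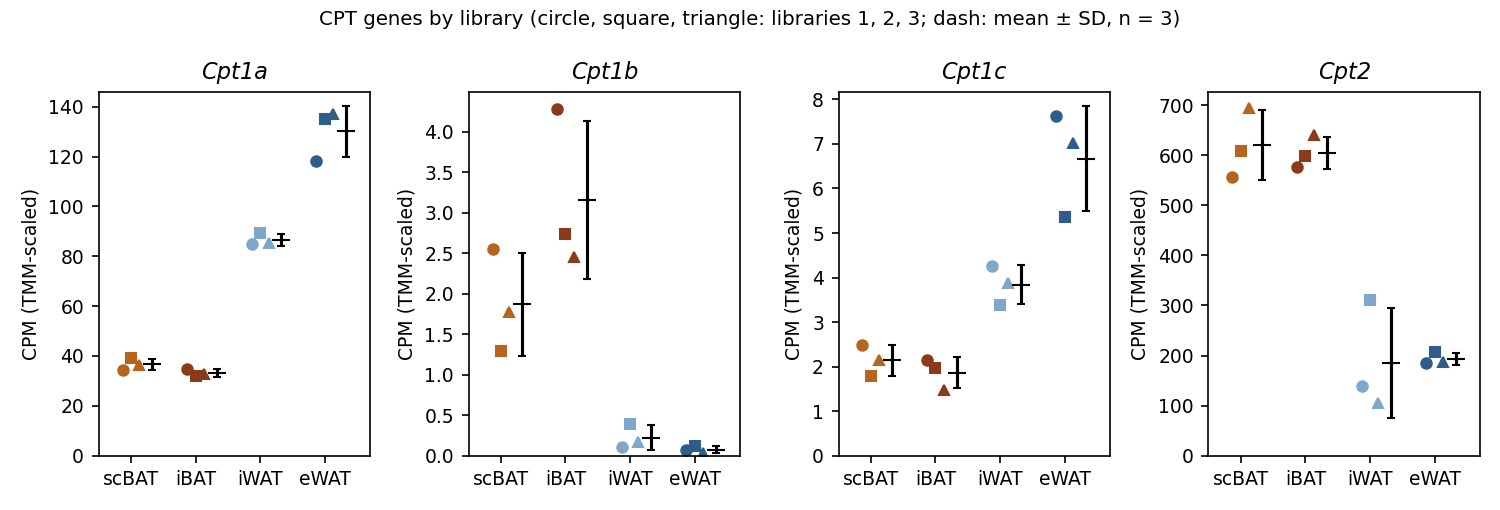
CPM (TMM-scaled, linear axes from 0) of the 4 CPT genes in each of 12 libraries, by depot, with the depot mean ± SD (n = 3). Cpt1a and Cpt1c sit lowest in scBAT and iBAT, Cpt1b and Cpt2 highest there, and iWAT library 2 stands above the other iWAT libraries for Cpt2, at 310.2 CPM.

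Cpt1a, the liver-type outer membrane enzyme, stood at 34.5, 39.0 and 36.3 CPM in scBAT libraries 1 to 3 and at 34.8, 31.8 and 32.9 CPM in iBAT, against 84.9, 89.3 and 85.5 CPM in iWAT and 118, 135 and 137 CPM in eWAT. No brown library overlapped a white one, and no iWAT library an eWAT one, while the brown depots overlapped. The order of depot means was eWAT (130.1 ± 10.3 CPM, SD, n = 3), iWAT (86.6 ± 2.39), scBAT (36.6 ± 2.24) and iBAT (33.2 ± 1.53). Cpt1a was 3.04-fold lower in brown than in white fat (log2 difference -1.61, SE 0.06, edgeR adjusted p = 2.65e-08). It was also lower in iWAT than in eWAT (log2 difference -0.59, SE 0.09, edgeR adjusted p = 0.00316), where 28.7% of tested genes were called, 17.7% higher and 11% lower in iWAT. Both calls held in each of the 19 alternative fits. Between scBAT and iBAT, where 0.329% of tested genes were called, its log2 difference was 0.14 (SE 0.09, edgeR adjusted p = 1).

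Markers of some other cell types, like Cpt1a, were lower in brown than in white libraries. The summed level of the progenitor and matrix markers Pdgfra, Cd34, Dpp4 and Dcn ran from 431.3 to 439.7 CPM in scBAT, 285.3 to 316.0 CPM in iBAT, 587.3 to 972.0 CPM in iWAT and 1351 to 1375 CPM in eWAT, which is the order of Cpt1a. The macrophage sum (Csf1r, Cd68, Cd163 and Mrc1, with 4 of 5 listed markers in the table) was 73.1 to 167.2 CPM in brown libraries against 312.0 to 532.8 CPM in white ones. Their part in the level of Cpt1a was not tested. Endothelial and lymphocyte markers moved differently. The sum of Pecam1, Cdh5 and Cldn5 was 539.7 to 724.1 CPM in brown libraries and 524.4 to 732.5 CPM in white ones. The sum of 5 T cell genes was 613.8, 42.2 and 945.2 CPM in iWAT libraries 1 to 3, beside Cpt1a levels of 84.9, 89.3 and 85.5 CPM.

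Cpt1b, the muscle-type form, had few reads in any library. It had 41, 23 and 28 counts in scBAT and 70, 43 and 38 in iBAT, against 3, 9 and 5 in iWAT and 2, 3 and 1 in eWAT. In CPM these were 2.55, 1.29 and 1.78 in scBAT and 4.28, 2.74 and 2.45 in iBAT, against 0.105, 0.396 and 0.165 in iWAT and 0.0710, 0.119 and 0.0314 in eWAT. Every brown library was above every white one, whereas scBAT overlapped iBAT and iWAT overlapped eWAT. Cpt1b was 18.7-fold higher in brown than in white fat (log2 difference 4.22, SE 0.39, edgeR adjusted p = 4.17e-06), a call that held in each of the 19 alternative fits. Between the brown depots the log2 difference of scBAT minus iBAT was -0.76 (SE 0.44, edgeR adjusted p = 1), and between the white depots that of iWAT minus eWAT was 1.52 (SE 0.65, edgeR adjusted p = 0.0933). The white values rest on 17 counts in all of iWAT and 6 in all of eWAT.

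Skeletal muscle also uses Cpt1b, and muscle markers were present in the libraries. The summed level of 19 muscle genes was 8285, 2867 and 2467 CPM in scBAT libraries 1 to 3 and 636.6, 916.9 and 2703 CPM in iBAT, against 160.5, 130.8 and 102.5 CPM in iWAT and 156.6, 206.8 and 338.2 CPM in eWAT. None of the 19 markers was at 0 in any library. Brown libraries were thus above white ones for Cpt1b and for the muscle sum alike. The library with the most muscle marker RNA, scBAT 1, had 2.55 CPM of Cpt1b, the highest of the scBAT libraries, and the brown library with the least, iBAT 1, had the most Cpt1b of all, 4.28 CPM. Among white libraries, eWAT 3 had the most muscle marker RNA and the least Cpt1b. The part of muscle RNA in the Cpt1b level was not tested.

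**Figure D2:**
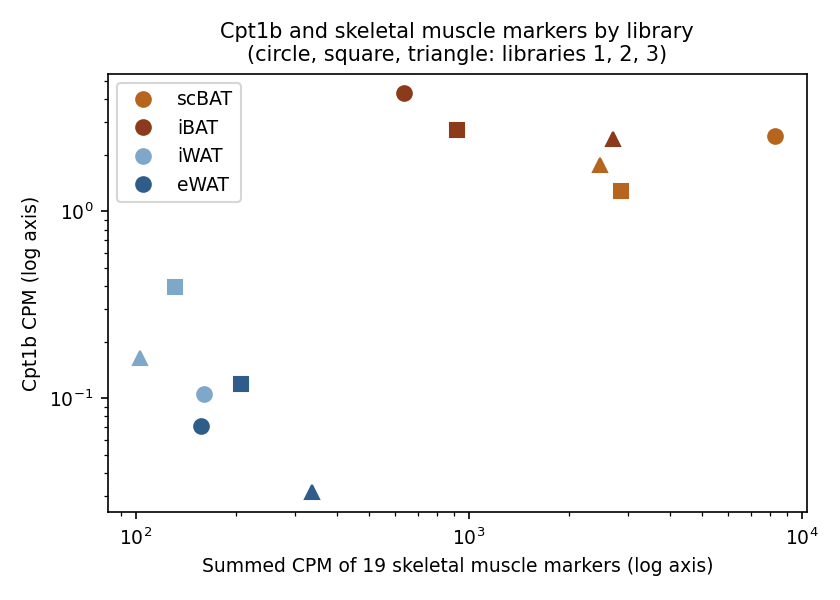
Cpt1b CPM (y, log axis) against the summed CPM of 19 skeletal muscle markers (x, log axis), 1 point per library, coloured by depot. Brown libraries lie above white ones on both axes, and the highest Cpt1b level, 4.28 CPM, is in iBAT 1, which has the lowest muscle sum of the brown libraries, 636.6 CPM.

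Cpt1b overlaps another gene in the annotation. A gene that reads through from the choline kinase gene Chkb, upstream, into Cpt1b (GENCODE name Gm44502, with BC090627 and Chkb-Cpt1b among its RefSeq synonyms) lies on the same strand and covers the whole Cpt1b span. It shares 2744 of the 3372 exon bases of Cpt1b (81.4%), which leaves 628 bases to Cpt1b alone, and 50.7% of the exon bases of Chkb. The count table has a row named BC090627, and it held 0 counts in all 12 libraries. Chkb itself had 1 to 5 counts in brown libraries and 0 to 3 in white ones. HTSeq, which is among the tools listed by the submitters, by default leaves out reads that fall on more than a single gene. Its settings are not given in the sources used here, and whether reads were lost in this way was not tested. The annotated bases of Cpt1b were the same in every library, but whether the share of its reads left out differed between depots was not tested. A comparison of Cpt1b with another gene also rests on different bases.

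**Figure D3:**
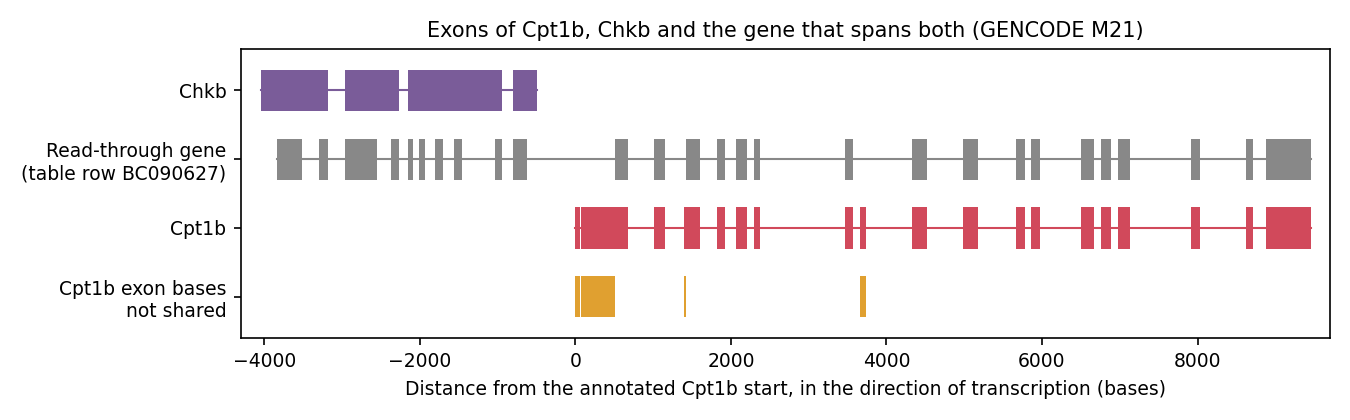
Exons of Chkb, the read-through gene, Cpt1b and the Cpt1b exon bases outside the read-through exons, against the distance from the annotated Cpt1b start in bases. Boxes are exons of all transcripts merged, and the 628 unshared bases lie mostly near the Cpt1b start.

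Cpt1c, the neuronal form, was the other member with a low CPM. It stood at 2.48, 1.79 and 2.16 CPM in scBAT and 2.14, 1.98 and 1.49 CPM in iBAT, against 4.25, 3.39 and 3.88 CPM in iWAT and 7.63, 5.35 and 7.02 CPM in eWAT. Brown and white libraries did not overlap, nor did iWAT and eWAT, while scBAT and iBAT did. Cpt1c was 2.53-fold lower in brown than in white fat (log2 difference -1.34, SE 0.16, edgeR adjusted p = 3.55e-05). Its log2 difference was -0.79 in iWAT minus eWAT (SE 0.22, edgeR adjusted p = 0.0273) and 0.20 in scBAT minus iBAT (SE 0.24, edgeR adjusted p = 1). The call between the white depots was lost without iWAT 1, iWAT 3, eWAT 1 or eWAT 3 (adjusted p up to 0.094). An antisense gene, 6530437J22Rik, overlaps 6.53% of the Cpt1c exon bases, and without a stated strand setting its reads cannot be told apart from those of Cpt1c there.

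Neuronal markers were low. The summed level of 8 neuronal genes was 4.15 to 5.14 CPM in brown libraries against 8.67 to 21.9 CPM in iWAT and 10.3 to 11.7 CPM in eWAT, so that iWAT libraries 1 and 3 were above eWAT, unlike for Cpt1c. Of the 8 genes, 5 in brown and 4 in white libraries had no count in at least 1 library. Of the 8 genes 3 passed the filter on low counts, and edgeR called 2 of those lower in brown than in white fat. The 5 Schwann cell genes summed to 90.7 to 127.3 CPM in brown libraries, against 154.2 to 294.5 CPM in iWAT and 59.6 to 61.4 CPM in eWAT, so that their highest depot was not that of Cpt1c. The part of nerve RNA in the Cpt1c level was not tested.

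Cpt2, the inner membrane enzyme, had the highest CPM of the members in every library. Its rank over Cpt1b holds for the reads counted, since whether reads of Cpt1b were left out was not tested. Cpt2 stood at 556.7, 608.1 and 695.2 CPM in scBAT and 575.6, 598.7 and 639.4 CPM in iBAT. Its levels were 139.7, 310.2 and 105.1 CPM in iWAT and 184.9, 207.4 and 186.3 CPM in eWAT. Every brown library was above every white one. Within white fat the iWAT libraries spanned the whole eWAT range. Cpt2 was 3.24-fold higher in brown than in white fat (log2 difference 1.70, SE 0.23, edgeR adjusted p = 7.46e-05), in each of the 19 alternative fits too. The log2 difference of scBAT minus iBAT was 0.04 (SE 0.32, edgeR adjusted p = 1).

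Between the white depots the outcome for Cpt2 depended on the iWAT libraries used. With all of them the log2 difference of iWAT minus eWAT was -0.06 (SE 0.32, edgeR adjusted p = 0.889). Without iWAT 2 it was -0.65 (adjusted p = 0.00153), and without iWAT 1 and 3 it was 0.71 (adjusted p = 0.00589). The iWAT library with the most Cpt2, iWAT 2, also had the lowest T cell sum of the iWAT libraries (42.2 CPM) and the most adipocyte marker RNA. The sum of Adipoq, Fabp4, Plin1 and Lipe was 4125, 6869 and 2771 CPM in iWAT libraries 1 to 3, against 5985 to 6752 CPM in eWAT. How far lymphocyte or adipocyte content sets the iWAT values of Cpt2 was not tested.

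The 4 pairs of a brown with a white depot share libraries with each other and with the comparison of tissues. All 4 genes were called in each pair (edgeR adjusted p at most 0.00902). Of all tested genes 61.6% were called in scBAT minus iWAT, 28.1% higher and 33.5% lower, and 51.9% in scBAT minus eWAT, 26% higher and 25.8% lower. In iBAT minus iWAT 63% were called, 27.9% higher and 35.2% lower, and in iBAT minus eWAT 53.7%, 26.2% higher and 27.5% lower. The log2 differences of Cpt1a were -1.24 and -1.83 for scBAT minus iWAT and minus eWAT, and -1.38 and -1.97 for iBAT minus iWAT and minus eWAT. Those of Cpt1b, in the same order, were 3.09, 4.61, 3.84 and 5.36. Those of Cpt1c were -0.84, -1.64, -1.04 and -1.83, and those of Cpt2 were 1.75, 1.68, 1.71 and 1.65. The Cpt2 values of the iWAT pairs depended on the iWAT libraries used. Without iWAT 2 they were 2.34 for scBAT minus iWAT and 2.32 for iBAT minus iWAT, and without iWAT 1 and 3 they were 0.997 and 0.965. Over the alternative fits the Cpt2 values of the eWAT pairs ran from 1.59 to 1.76 for scBAT and from 1.56 to 1.70 for iBAT.

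Levels of different genes were compared per kilobase of annotated exon, with union lengths of 7642 bases for Cpt1a, 3372 for Cpt1b, 5605 for Cpt1c and 2391 for Cpt2. With these lengths, but not with the shorter Cpt1b length given below, Cpt1a held most of the summed CPT1 level in every depot. Its share was 83.6% ± 4.44 in scBAT and 77.6% ± 3.95 in iBAT, against 93.8% ± 0.41 in iWAT and 93.3% ± 1.45 in eWAT (SD, n = 3). The share of Cpt1b was 9.70% ± 3.33 in scBAT and 16.5% ± 3.52 in iBAT, against 0.54% ± 0.36 in iWAT and 0.121% ± 0.0704 in eWAT. It ran from 6.58% to 20.4% over the 6 brown libraries and from 0.0484% to 0.947% over the 6 white ones, with no overlap. The share of Cpt1c was 6.68% ± 1.1 in scBAT, 5.92% ± 0.833 in iBAT, 5.69% ± 0.76 in iWAT and 6.57% ± 1.48 in eWAT, with ranges that overlapped at this length of Cpt1b. No test was made of the shares, since the members were chosen with results of these data known.

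Counting error is large for the small shares. Of the raw CPT1 counts of iBAT 1, Cpt1b took 10.4% (95% exact Clopper-Pearson interval 8.17% to 12.9%), and of those of eWAT 3 it took 0.0217% (interval 0.000551% to 0.121%). These intervals cover counting error only. With a Cpt1b length of 628 bases, those outside the read-through gene, the Cpt1b share was 36.0% ± 8.77 in scBAT and 51.1% ± 6.17 in iBAT, against 2.81% ± 1.83 in iWAT and 0.645% ± 0.374 in eWAT. With this length the Cpt1c share ran from 4.28% to 4.92% in scBAT and from 3.12% to 3.97% in iBAT, against 4.68% to 6.31% in iWAT and 5.08% to 8.03% in eWAT, so that iBAT no longer overlapped either white depot. This length was chosen after seeing the data and would apply if only reads of those bases had been counted. The Cpt1b share was higher in brown than in white libraries with either length, whereas in iBAT the larger mean share was that of Cpt1a with the full length and that of Cpt1b with the shorter one.

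**Figure D4:**
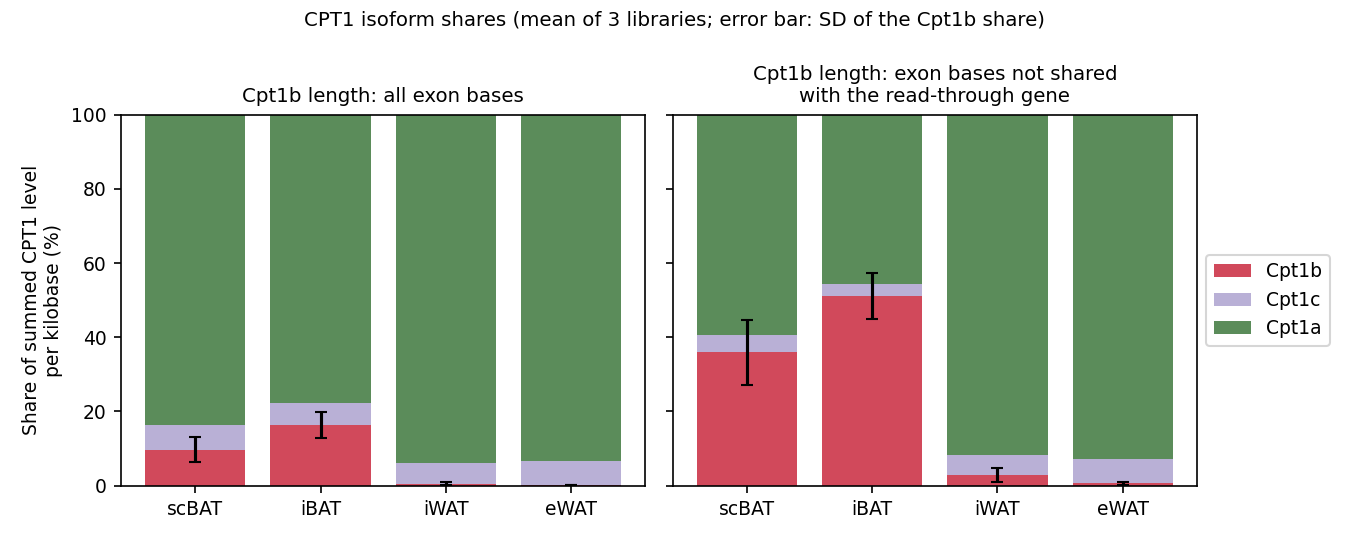
Share of Cpt1b, Cpt1c and Cpt1a in the summed CPT1 level per kilobase (y, percent), by depot (mean of 3 libraries, error bar the SD of the Cpt1b share), with the full exon length of Cpt1b on the left and its 628 unshared exon bases on the right. The Cpt1b share is larger in scBAT and iBAT than in iWAT and eWAT in both panels, and its size in brown fat depends on the length.

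On the per kilobase scale, with either Cpt1b length used above, the summed CPT1 level was lower in brown fat while Cpt2 was higher. The CPT1 sum was 5.73 ± 0.0689 CPM per kilobase in scBAT and 5.61 ± 0.516 in iBAT, against 12.1 ± 0.285 in iWAT and 18.2 ± 1.23 in eWAT (SD, n = 3). With the 628-base length of Cpt1b the sum was 8.15 ± 0.789 in scBAT and 9.70 ± 1.78 in iBAT, against 12.4 ± 0.483 in iWAT and 18.3 ± 1.22 in eWAT. Brown and white libraries did not overlap at this length, with iBAT reaching 11.8 and iWAT starting at 12.0. The 628 bases lie in separate pieces, so the length open to whole reads may be shorter. A shorter length would raise the sum, most in brown fat, and was not tried, so the order there is not known. Cpt2 stood at 259.3 ± 29.3 CPM per kilobase in scBAT and 252.8 ± 13.5 in iBAT, against 77.4 ± 45.9 in iWAT and 80.7 ± 5.28 in eWAT. Cpt2 was 45.3 ± 5.44 times the CPT1 sum in scBAT and 45.4 ± 5.99 times in iBAT, against 6.35 ± 3.61 times in iWAT and 4.43 ± 0.326 times in eWAT. With the 628-base length of Cpt1b the ratio was 32.1 ± 5.59 in scBAT and 26.7 ± 5.66 in iBAT, against 6.17 ± 3.41 in iWAT and 4.41 ± 0.313 in eWAT. Brown and white libraries did not overlap with either length, at 38.8 to 51.3 in brown against 3.69 to 10.5 in white with the first and 20.5 to 36.5 against 3.62 to 10.04 with the second.

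The other genes of carnitine handling were called in both directions. Of 11 listed, 9 were tested, of which 5 rose in brown fat, 3 fell and 1 was not called, where 31.3% of all tested genes rose and 38.1% fell. The median log2 difference was 0.60, against -0.11 over all tested genes. Slc25a20, the carrier between CPT1 and CPT2, had the largest difference of the list. It stood at 496.6, 497.1 and 663.7 CPM in scBAT and 579.8, 617.5 and 560.4 CPM in iBAT, against 57.0, 124.8 and 55.3 CPM in iWAT and 65.8, 84.9 and 71.1 CPM in eWAT. No brown library overlapped a white one (log2 difference 2.90, SE 0.21, edgeR adjusted p = 9.2e-07). Crat, the acetyltransferase that buffers acetyl-CoA in mitochondria, rose by 1.81 on the log2 scale, and Crot, its counterpart for medium chains in peroxisomes, by 0.60. Slc22a5, the high-affinity carnitine importer of the plasma membrane, rose by 1.57, while its relatives Slc22a4 (-1.22) and Slc22a21 (-0.78) fell. Brown and white libraries overlapped for these relatives. Slc22a4 stood at 17.9 CPM in iWAT 3 against 18.2 to 20.6 CPM in scBAT, and Slc22a21 at 2.20 CPM in iWAT 2 against 2.29 CPM in iBAT 2. Slc22a21 was not called in iBAT minus iWAT (-0.39, edgeR adjusted p = 0.224). Slc16a9, a carnitine exporter in human studies, fell by 2.38. Slc25a29, a mitochondrial carrier, had a log2 difference of -0.16 (adjusted p = 0.432). Of the genes of carnitine synthesis Aldh9a1 rose (1.06), while Tmlhe had no count in any library and Bbox1 at most 4, so neither was tested. In iWAT libraries 1 to 3, Crat stood at 220.7, 473.0 and 159.6 CPM, highest in iWAT 2 as Cpt2 and Slc25a20 were.

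Genes that set malonyl-CoA, the inhibitor of CPT1, were higher in brown fat on both sides of its balance. Of 12 genes of malonyl-CoA and of AMP-activated kinase (AMPK), which restrains its synthesis, 9 rose, 0 fell and 3 were not called, with a median log2 difference of 1.15. The share called, 75% of the list, is near the 69.4% called among all tested genes, of which 31.3% rose. The acetyl-CoA carboxylase genes, whose products make malonyl-CoA, rose, Acaca by 1.95 and Acacb, the form at the mitochondrial surface, by 2.29. Acacb stood at 2335, 2713 and 2829 CPM in scBAT and 2329, 2329 and 2492 CPM in iBAT, against 359.1, 1070 and 307.9 CPM in iWAT and 353.6, 513.4 and 498.2 CPM in eWAT. Every brown library was above every white one, and iWAT 2 was the highest white library (SE 0.30, edgeR adjusted p = 5.38e-05). Mlycd, the decarboxylase that breaks malonyl-CoA down, rose by 1.21, and Fasn, the synthase that uses it, by 2.06. Of the AMPK subunits the catalytic Prkaa2 (1.65) and the regulatory Prkab1 (1.09), Prkag1 (0.90) and Prkag2 (1.65) rose, as did the upstream kinase Stk11 (0.77). Prkaa1 (0.14), Prkab2 (-0.00) and Prkag3 (-0.75) were not called (adjusted p = 0.156, 0.993 and 0.167). Without scBAT 1, the library with the most muscle marker RNA, Prkag3 was called lower, and without iWAT 2 Prkaa1 was called.

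Genes on either side of the CPT step were mostly higher in brown fat, in a comparison where 31.3% of all tested genes rose and 38.1% fell. All 4 tested long-chain acyl-CoA synthetases, which make the substrate of CPT1, rose, Acsl5 by 1.88, Acsl3 by 1.40, Acsl1 by 0.65 and Acsl4 by 0.27, and Acsl6 had too few reads to be tested. The calls of Acsl1 (adjusted p = 0.0287) and Acsl4 (adjusted p = 0.046) were lost with upper quartile scaling and without any of several libraries (iBAT 2, iBAT 3, scBAT 3, iWAT 1, eWAT 1 or eWAT 3), and that of Acsl4 also without scBAT 2 or eWAT 2, without iWAT 1 and 3, without a filter and with limma-voom. All 15 genes of beta-oxidation in the matrix rose, with log2 differences from 1.21 to 3.47 and a median of 2.32. Those with the smallest adjusted p were the thiolase gene Acaa2 (3.47), the trifunctional protein genes Hadha (2.73) and Hadhb (3.01) and Acadvl (3.09), the dehydrogenase of very long chains. Of 7 transcriptional regulators of fatty acid oxidation 6 rose. These were Ppara (4.30), Esrrg (4.09), Ppargc1b (3.72), Ppargc1a (3.31), Esrra (2.16) and Pparg (0.76), and Ppard was not called (-0.03, adjusted p = 0.686). Pparg was called higher in each brown depot against iWAT. Against eWAT it was not called for scBAT (0.41, edgeR adjusted p = 0.290) or for iBAT (0.35, edgeR adjusted p = 0.367). Between scBAT and iBAT 0 of the 47 tested genes of these lists were called by edgeR, with 1 at an unadjusted p under 0.05, while DESeq2 called 1 and limma-voom 0. The same tools called 0 of the 4 CPT genes there, with 0 at an unadjusted p under 0.05. Of all genes tested between the brown depots edgeR called 0.329%, and DESeq2 called 207 of 17765. With so few genes called, these counts say little about the listed genes. Between iWAT and eWAT edgeR called 2 of the 47 genes, Prkab1 higher (0.56) and Prkag3 lower (-2.57) in iWAT, and DESeq2 called 5. Of all genes tested there edgeR called 28.7%, and DESeq2 called 5752 of 16276.

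**Figure D5:**
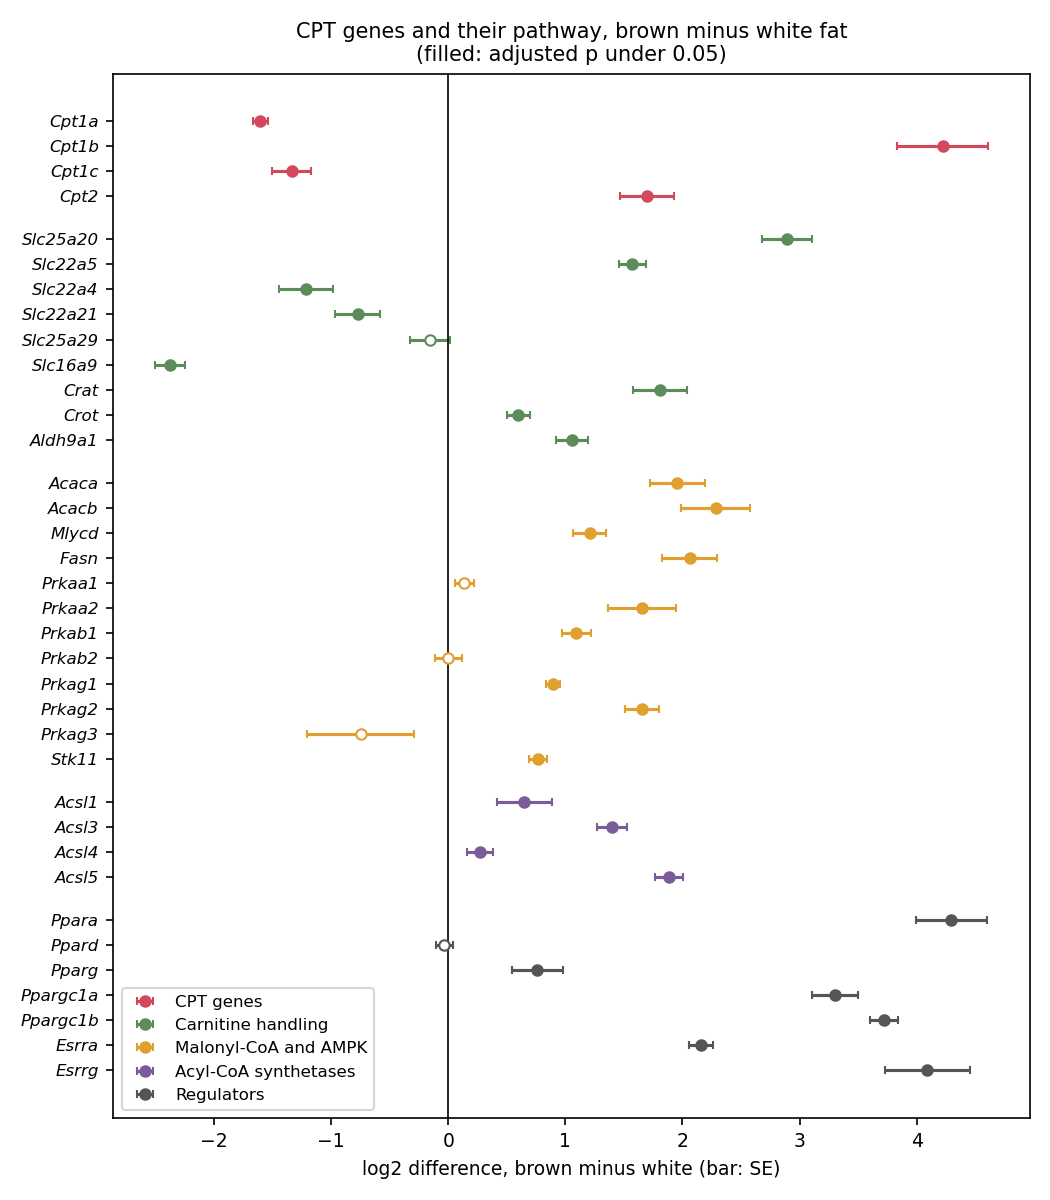
log2 difference of brown minus white fat (x, with SE) for the CPT genes and for genes of carnitine handling, malonyl-CoA and AMPK, acyl-CoA synthesis and transcriptional control, with filled points for an adjusted p under 0.05. Cpt1a, Cpt1c, Slc22a4, Slc22a21 and Slc16a9 are the filled points below 0, and Cpt1b, at 4.22, lies near Ppara (4.30) and Esrrg (4.09).

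For each member the 5 genes of most similar pattern were those with the highest Pearson correlation of log2 CPM over the 12 libraries, among 9765 or 9766 genes with a mean of at least 10 CPM. These values describe libraries that share depot and depth, and many genes had high ones. A correlation above 0.95 was found with 1243 genes for Cpt2, 570 for Cpt1b, 387 for Cpt1a and 45 for Cpt1c. The nearest to Cpt2 were Decr1, a reductase of unsaturated acyl-CoA, Oplah, Acat2, Fut8 and Rtn4 (0.996 each). Those nearest to Cpt1b were Dgkd (0.988), Esrrg (0.987), Serac1 (0.986), Eif5 (0.985) and Abca2 (0.983). Those nearest to Cpt1a were Frmd6 (0.995), Colec12 (0.995), Fut11 (0.993), Tfpi (0.990) and Cks1b (0.990), and among those nearest to Cpt1c were Bok (0.982), Rab23 (0.977) and Tspyl2 (0.976). Of the 5 named for each of Cpt2, Cpt1a and Cpt1b, a ranking by Spearman correlation kept 0, 0 and 4. Within the 6 brown libraries alone the correlation of Cpt1a with its 5 genes was 0.0791 to 0.77, and within the 6 white ones 0.94 to 0.98. For Cpt1b and its 5 genes it was 0.800 to 0.897 in brown and 0.794 to 0.899 in white libraries. For Cpt2 and its 5 genes it was 0.756 to 0.887 in brown and 0.981 to 0.997 in white libraries.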

How the data were processed

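The authors deposited a table of raw counts, whole numbers of reads per gene symbol and library, with no normalization. Per the submitters' processing notes, the tools were HTSeq 0.6.1p1, STAR 2.4.2a, edgeR, Picard 1.119 and bcl2fastq 1.8.3, with mm10 as genome build. Their roles, annotation and strand setting are not given in the sources used here. Per the labels, total RNA was made into TruSeq libraries. Total counts were 17159401 to 29262554 per library. Columns were matched to samples by the labels' description field.

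Genes were filtered with filterByExpr and tested in R 4.3.3 by edgeR 4.0.16 (robust quasi-likelihood fit, TMM scaling), with all 12 libraries and a mean per depot (8 residual degrees of freedom). P-values were adjusted by Benjamini-Hochberg over 14898 genes, with a threshold of 0.05. The SE of a log2 difference was its absolute value divided by the square root of the F statistic of its test. The script was tested on simulated data. Members, lists and the rule for naming genes were chosen with earlier results of these data known. The rule named the 4 members, every gene of a list of 12 or fewer, otherwise the 4 with the smallest adjusted p between brown and white and any called against most of the list, the 5 most similar genes (mean of at least 10 CPM, without predicted gene models) and genes overlapping a member; some of these genes are not reported here. Coding sequences took the place of a planned protein comparison. The GGGCGG motif was added after the sequences were seen. Shares used CPM per kilobase of GENCODE M21 union exons. Alternatives were other scalings, no filter, DESeq2 1.42.0, limma-voom (limma 3.58.1), a replicate block, leaving out each library and other lengths.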

Additional observations from a re-analysis of the deposited data

How the results depend on the processing

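Each of the 4 CPT genes kept its direction and its call between brown and white fat in all 19 alternative fits. Between iWAT and eWAT, Cpt1c was not called when iWAT 1 and 3 were left out together (log2 difference -0.96, adjusted p = 0.122), and ranged from -0.95 to -0.70 without each library in turn. There Cpt2 reversed to 0.71 without iWAT 1 and 3 and ranged from -0.65 to 0.22 without each library; the alternative leaves a single iWAT library, assumed to vary like the other groups. Cpt1c in scBAT minus iWAT was not called without iWAT 1 and 3 (-0.66, adjusted p = 0.096).

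Of the list counts, higher acyl-CoA synthetases were 2 with upper quartile scaling and 2 to 5 without each library, counting Acsl6 where it passed the filter and was called, and lower malonyl-CoA and AMPK genes 0 to 1 without each library. Directions of the 42 called list genes were unchanged in every alternative fit. Same-numbered libraries of different depots did not deviate together (median correlation of deviations -0.0435, with 5 of 18 pairs above 0.1), so the numbers were not taken to pair them. With the replicate block 10120 genes were called in brown minus white, against 10333 without it, the log2 difference of Cpt1a was -1.60 and that of Cpt1b 4.22, and no call of the 4 CPT genes changed.

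Shares depend on the length used. With coding length the brown share was 88.6% for Cpt1a, 6.42% for Cpt1b and 4.93% for Cpt1c, and with no length 88.5%, 6.41% and 5.09%; the white shares of Cpt1a and Cpt1c were 95.4% and 4.44% with coding length and 95.3% and 4.58% with none. With the unshared length of Cpt1b, added after seeing the data, the shares of Cpt1a, Cpt1b and Cpt1c in brown fat were 52.4%, 43.5% and 4.06%, and in white fat 92.2%, 1.73% and 6.05%. The log2 ratio of Cpt1b to Cpt1a in brown was -3.89 with coding length and -3.89 with none, and with the unshared length it was -0.29 in brown and -6.30 in white. The log2 ratio of summed CPT1 to Cpt2 was -4.75 in brown and -1.52 in white with the longest transcript, -4.19 and -0.92 with coding length, -3.96 and -0.68 with no length, and -4.85 in brown with the unshared length. Counts of 1 to 9 per white library limit every statement on Cpt1b there.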
